A study of Mus musculus with 25 samples.

Results

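The 10 genes described here are held high in the hepatocytes around the central vein by Wnt signalling: Glul, Oat, Slc1a2, Rhbg, Lgr5, Rnf43, Znrf3, Axin2, Tbx3 and Lect2. They were taken by gene symbol and not by a threshold on these values, though the list was drawn up with earlier results of these data known. The loci that carry one of these symbols were looked up among 46499 loci in the younger cohort and 46052 in the older. Each gene was found at 1 locus in each cohort. RNA of whole liver from C57BL/6 mice was sequenced in 2 cohorts, to compare mice labelled Ncoa5+/- (heterozygous for a targeted Ncoa5, which encodes a coactivator of nuclear receptors) with wild type mice, and metformin with no treatment. At 20 weeks of age there were 4 untreated mice labelled Ncoa5+/- and 4 untreated wild type mice. At 39 weeks there were 5 mice labelled Ncoa5+/- and 3 wild type mice that had drunk metformin, a glucose-lowering drug, at about 250 mg/kg per day from the age of 8 weeks for 31 weeks, with 5 untreated mice labelled Ncoa5+/- and 4 untreated wild type mice of the same age. The labels do not give the sex of the mice or the cells in which the targeted copy is missing. The cohorts were prepared and sequenced at different facilities, so age and facility cannot be told apart and no test crosses them.

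In the liver lobule, endothelial cells of the central vein release Wnt ligands and R-spondin, and hepatocytes next to the vein respond through Frizzled and LRP receptors. Beta-catenin then escapes its destruction complex and, with TCF/LEF factors, turns on a pericentral programme that includes glutamine synthesis from ammonia, while hepatocytes nearer the portal vein run the urea cycle. Several targets feed back on the pathway itself: Axin2 helps to destroy beta-catenin, Rnf43 and Znrf3 remove Frizzled from the cell surface, and Lgr5 binds R-spondin, which holds Rnf43 and Znrf3 back.

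RefSeq (GRCm38.p6) gave a window of 250 bases before to 50 after the gene start for 6 of the 10 genes: Glul, Oat, Slc1a2, Axin2, Lect2 and Rnf43, the last with a pair of starts. Rhbg, Lgr5, Tbx3 and Znrf3 were not matched. The windows were searched on both strands for the TCF/LEF core words CTTTGAT and CTTTGAA, which differ in the last base, so no 7 bases match both. A match stood in 2 of the 6 genes, Slc1a2 and Lect2, and in 9.88% of the 27025 genes of the table (8.65% of its 32851 windows). The windows of Glul, Oat, Slc1a2 and Lect2 are shown because these genes, with Rhbg, had the lower means in mice labelled Ncoa5+/- at 39 weeks. Capitals mark a match, which read on the opposite strand spells CTTTGAT, and lower case marks the rest. The Glul window is chr1:153899679-153899978 on the plus strand, that of Oat chr7:132576349-132576648 on the minus strand, that of Slc1a2 chr2:102706188-102706487 on the plus strand and that of Lect2 chr13:56548489-56548788 on the minus strand.
Glul: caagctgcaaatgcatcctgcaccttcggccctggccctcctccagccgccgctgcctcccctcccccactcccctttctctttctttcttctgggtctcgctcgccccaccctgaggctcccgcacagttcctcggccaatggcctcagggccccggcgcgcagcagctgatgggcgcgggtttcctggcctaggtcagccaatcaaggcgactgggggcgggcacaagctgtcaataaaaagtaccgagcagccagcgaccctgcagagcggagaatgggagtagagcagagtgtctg
Oat: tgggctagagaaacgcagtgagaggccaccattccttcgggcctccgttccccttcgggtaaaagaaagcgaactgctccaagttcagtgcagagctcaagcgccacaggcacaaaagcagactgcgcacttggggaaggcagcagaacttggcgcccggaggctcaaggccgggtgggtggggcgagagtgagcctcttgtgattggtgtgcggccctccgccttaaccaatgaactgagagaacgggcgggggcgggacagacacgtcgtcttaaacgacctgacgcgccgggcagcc
Slc1a2: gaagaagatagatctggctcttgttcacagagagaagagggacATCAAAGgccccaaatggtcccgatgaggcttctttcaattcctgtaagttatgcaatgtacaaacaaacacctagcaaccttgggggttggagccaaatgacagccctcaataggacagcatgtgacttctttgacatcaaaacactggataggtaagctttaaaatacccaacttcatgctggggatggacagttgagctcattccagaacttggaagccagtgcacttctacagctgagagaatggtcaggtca
Lect2: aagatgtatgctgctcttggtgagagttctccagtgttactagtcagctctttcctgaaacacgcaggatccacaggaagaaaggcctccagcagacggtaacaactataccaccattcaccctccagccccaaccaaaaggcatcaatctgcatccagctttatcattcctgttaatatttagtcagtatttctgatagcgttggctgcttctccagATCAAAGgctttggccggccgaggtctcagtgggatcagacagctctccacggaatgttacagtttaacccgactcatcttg
The match began 207 bases before the start in Slc1a2 and 32 bases before it in Lect2. The RefSeq starts of Slc1a2, Glul and Oat lie 47779, 50387 and 547956 bases inside the authors' loci, and other starts of these loci were not searched.

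Values are FPKM, the fragments mapped to a locus per kilobase of its transcript, scaled for library size, as the authors deposited them for each mouse. How the libraries were scaled to each other is not given in the sources used here. From the value that 1 fragment adds at lowly expressed loci, relative depth ran from 0.969 to 1.64 times that of the first library at 20 weeks and from 0.844 to 1.31 times at 39 weeks. In 3 libraries the 50 highest loci took over 70% of the FPKM sum: at 39 weeks 78.3% in replicate 3 of the untreated mice labelled Ncoa5+/- and 72.5% in replicate 5 of those given metformin, and at 20 weeks 78.7% in wild type replicate 4. Results that turn on them are given with and without them. The level of Ncoa5 itself did not separate the labels (2.63 to 4.42 FPKM in untreated mice labelled Ncoa5+/- and 3.6 to 4.68 FPKM in untreated wild type mice at 39 weeks), so the labels stand unchecked by it. The hepatocyte marker genes Alb, Serpina1a and Trf were listed at 0 in every mouse, and Apoa1 in every mouse of 20 weeks. The hepatocyte markers still summed to at least 7808 FPKM in every mouse. For the 11 markers that sum held 10 loci at 20 weeks and 9 at 39 weeks, with failed estimates kept out. The spread between mice is biological and technical together, and in whole liver fewer cells of a type and less RNA per cell cannot be told apart.

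All 10 genes had a cohort mean of at least 1 FPKM at both ages and were tested, among 10963 loci at 20 weeks and 11441 at 39 weeks. No one of them passed an adjusted p of 0.05 in any comparison (limma, Benjamini-Hochberg over all loci tested). At 39 weeks the 4 genes that handle ammonia, glutamate and ornithine, namely Glul, Oat, Slc1a2 and Rhbg, had lower means in mice labelled Ncoa5+/-, at 0.656 to 0.802 times the wild type mean without metformin and at 0.633 to 0.806 times with it. The 5 regulators, Lgr5, Rnf43, Znrf3, Axin2 and Tbx3, showed no common direction. With FPKM being per length, the levels of the genes can be set side by side, although the Oat locus overlaps 43 other loci and its level is uncertain. Oat and Glul were the highest in all 6 groups and overlapped each other in each. Lect2 and then Slc1a2 followed, which overlapped in mice labelled Ncoa5+/- at 20 weeks and in no other group. Axin2, Lgr5 and Znrf3 took the last 3 places and overlapped with each other in both untreated groups at 39 weeks and in mice labelled Ncoa5+/- at 20 weeks. Axin2 stood above both others in mice labelled Ncoa5+/- given metformin and above Znrf3 in wild type mice given it, and Znrf3 stood above Lgr5 in wild type mice at 20 weeks.

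Glul encodes glutamine synthetase, which binds ammonia to glutamate in the last row of hepatocytes before the central vein. Its locus spans chr1:153849542-153909723 (GRCm38.p5) and also holds the microRNA gene Mir8114. At 39 weeks Glul stood at 272, 200, 439, 350 and 255 FPKM in the untreated mice labelled Ncoa5+/-, against 432, 423, 422 and 347 FPKM in untreated wild type mice. With metformin it stood at 282, 338, 323, 281 and 354 FPKM in mice labelled Ncoa5+/-, against 476, 453 and 463 FPKM in wild type mice. The untreated groups overlapped through replicate 3 of the mice labelled Ncoa5+/-, which was the highest of all 9 untreated mice, and through replicate 4 of the wild type mice, the lowest wild type mouse. With metformin every mouse labelled Ncoa5+/- was below every wild type mouse. The means were 303 ± 93.1 FPKM in untreated mice labelled Ncoa5+/- and 406 ± 39.4 FPKM in untreated wild type mice (SD, n = 5 and 4). The log2 difference was -0.47 ± 0.17 without metformin (SE, 95% interval -0.82 to -0.11, limma adjusted p = 0.659). With metformin the means were 316 ± 33.0 FPKM in mice labelled Ncoa5+/- and 464 ± 11.5 FPKM in wild type mice (SD, n = 5 and 3), a log2 difference of -0.56 ± 0.18 (95% interval -0.95 to -0.17, limma adjusted p = 0.815). At 20 weeks Glul stood at 363, 309, 171 and 285 FPKM in mice labelled Ncoa5+/-, against 312, 322, 378 and 382 FPKM in wild type mice, which overlapped (log2 difference -0.35 ± 0.23, limma adjusted p = 0.613).

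Oat encodes ornithine aminotransferase, the mitochondrial enzyme that turns ornithine into a precursor of glutamate and proline. The authors' locus for it spans chr7:130162432-133124354 in the older cohort, which is 2961923 bases, and 43 other loci lie across that span, 17 of them with a mean of at least 1 FPKM, so reads may be shared and the level is uncertain. At 39 weeks Oat stood at 266, 362, 275, 228 and 356 FPKM in untreated mice labelled Ncoa5+/-, against 363, 384, 453 and 452 FPKM in untreated wild type mice. These groups did not overlap, although the nearest mice, at 362 and 363 FPKM, almost touched. The log2 difference was -0.49 ± 0.18 (95% interval -0.86 to -0.11, limma adjusted p = 0.661). With metformin the groups overlapped, at 273, 226, 327, 408 and 390 FPKM in mice labelled Ncoa5+/-, against 339, 459 and 410 FPKM in wild type mice (log2 difference -0.33 ± 0.19, limma adjusted p = 1.0). At 20 weeks Oat ran from 285 to 547 FPKM in mice labelled Ncoa5+/- and from 350 to 544 FPKM in wild type mice, a full overlap.

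Slc1a2 encodes the glutamate transporter GLT-1, which is known from brain and brings glutamate into pericentral hepatocytes. Its locus is chr2:102658659-102790943 in the older cohort. At 39 weeks it stood at 30.1, 25.1, 38.1, 35.5 and 39.9 FPKM in untreated mice labelled Ncoa5+/-, against 31.5, 68.2, 51.5 and 54.6 FPKM in untreated wild type mice. Of these wild type mice only replicate 1 lay within the range of the mice labelled Ncoa5+/-. With metformin Slc1a2 was between 30.4 and 33.5 FPKM in all 5 mice labelled Ncoa5+/-, against 35.0, 49.6 and 66.9 FPKM in wild type mice, with no overlap. The log2 difference was -0.56 ± 0.20 without metformin (95% interval -0.99 to -0.13, limma adjusted p = 0.659) and -0.60 ± 0.22 with it (95% interval -1.06 to -0.13, limma adjusted p = 0.962). The SD between mice was 6.09 FPKM in mice labelled Ncoa5+/- and 15.2 FPKM in wild type mice without metformin, and 1.41 FPKM in mice labelled Ncoa5+/- and 16 FPKM in wild type mice with it. At 20 weeks Slc1a2 stood at 77.6, 28.6, 24.2 and 22.5 FPKM in mice labelled Ncoa5+/-, against 44.8, 43.8, 50.8 and 52.7 FPKM in wild type mice. In that cohort 3 mice labelled Ncoa5+/- lay below every wild type mouse and replicate 1 above every one. The log2 difference of -0.51 ± 0.35 (limma adjusted p = 0.619) became -0.91 without that replicate, with an adjusted p of 0.363.

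Rhbg encodes an ammonia transporter of the Rhesus family. The authors merged its locus, chr3:88242874-88296999, with Gm38392 and Tsacc, so the value is of the 3 genes together, and at 39 weeks a further expressed locus, Gm37116, overlaps it. At 39 weeks Rhbg stood at 8.16, 6.86, 9.76, 9.04 and 6.60 FPKM in untreated mice labelled Ncoa5+/-, against 9.76, 9.0, 12.4 and 9.16 FPKM in untreated wild type mice. The groups overlapped between 9.0 and 9.76 FPKM. With metformin they did not, at 7.53, 6.76, 7.48, 6.53 and 7.84 FPKM in mice labelled Ncoa5+/-, against 8.28, 10.3 and 10.3 FPKM in wild type mice. The log2 difference was -0.29 ± 0.11 without metformin (limma adjusted p = 0.785) and -0.36 ± 0.12 with it (limma adjusted p = 0.855). At 20 weeks the sign was the other way, with 8.28 ± 1.54 FPKM in mice labelled Ncoa5+/- and 6.88 ± 1.40 FPKM in wild type mice (SD, n = 4 each; log2 difference 0.24 ± 0.17, limma adjusted p = 0.623).

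**Figure D1:**
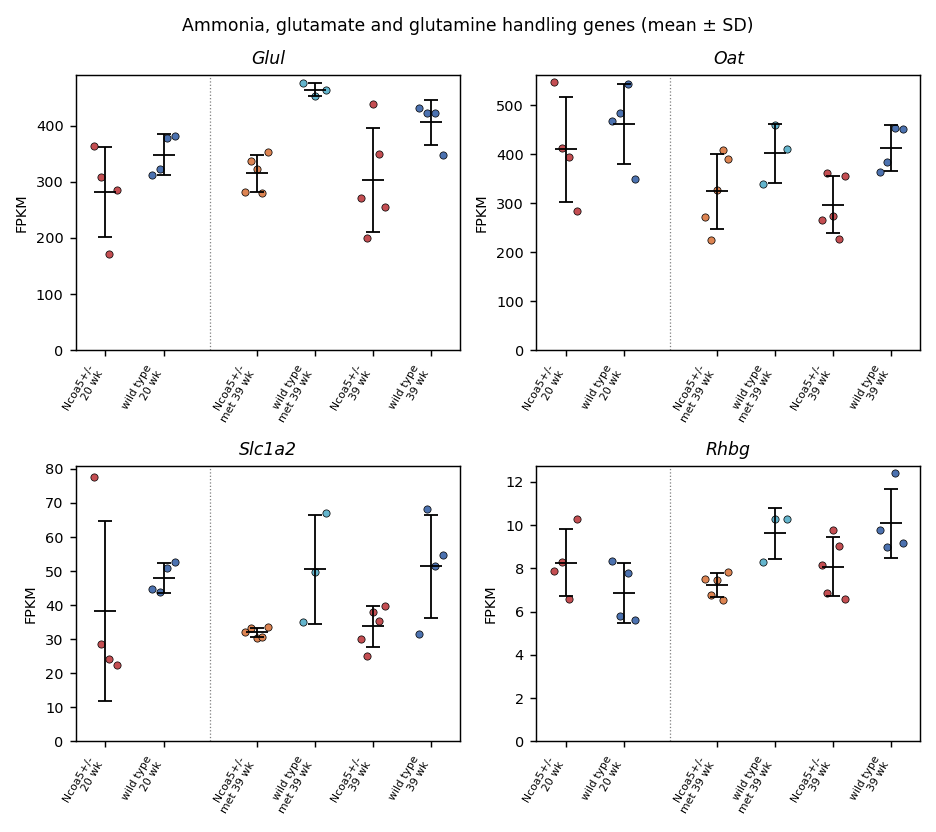
Levels of Glul, Oat, Slc1a2 and Rhbg in FPKM (vertical axis, from 0) for each mouse (points) in the 6 groups along the horizontal axis, with bars for mean ± SD; the dotted line separates the cohorts of 20 and 39 weeks, which were normalized apart. At 39 weeks the Glul points of the mice labelled Ncoa5+/- under metformin lie between 281 and 354 FPKM, below the 453 to 476 FPKM of wild type mice under metformin.

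Since the genotype difference had the same sign with and without metformin in these 4 genes, its mean over both was fitted too, a contrast chosen after the data were seen. It was -0.51 ± 0.12 for Glul (limma adjusted p = 0.117), -0.58 ± 0.15 for Slc1a2 (limma adjusted p = 0.159), -0.33 ± 0.08 for Rhbg (limma adjusted p = 0.160) and -0.41 ± 0.13 for Oat (limma adjusted p = 0.365). Over all loci 0.516% passed the threshold in this contrast, and none of the 10 genes did. At an unadjusted p under 0.05, 5 of the 10 were lower, these 4 and Lect2, where 3.18% of loci were. Some fits that left out libraries put Glul or Slc1a2 past the threshold, Glul in 2 of 23 alternatives and Slc1a2 in 1 of 23. Over these alternatives the limma adjusted p ran up to 0.286 for Glul and 0.435 for Slc1a2. Without untreated Ncoa5+/- replicate 3, the library with 78.3% of its FPKM sum in 50 loci, Glul passed at a log2 difference of -0.59 with an adjusted p of 0.00937, and without both such libraries of the older cohort at -0.61 with an adjusted p of 0.0121. Slc1a2 passed without untreated wild type replicate 1, at -0.69 with an adjusted p of 0.0195.

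Lgr5 is the R-spondin receptor that marks pericentral hepatocytes, and its locus is chr10:115450311-115587780 in the older cohort. Its level was low, at 1.38, 1.08, 2.03, 2.65 and 2.94 FPKM in untreated mice labelled Ncoa5+/- and 1.28, 2.61, 1.45 and 1.88 FPKM in untreated wild type mice at 39 weeks. With metformin Lgr5 stood at 1.55, 1.27, 1.14, 1.83 and 2.30 FPKM in mice labelled Ncoa5+/- and 1.07, 2.33 and 3.37 FPKM in wild type mice. The groups overlapped in both, with log2 differences of 0.08 ± 0.23 without metformin and -0.27 ± 0.25 with it. Rnf43 and Znrf3, the ubiquitin ligases that clear Frizzled, lie on chromosome 11 at chr11:87662507-87735541 and chr11:5276324-5444902. Rnf43 shares its span with 1110028F11Rik, which is merged into the same locus in the younger cohort. Under metformin Rnf43 ran from 8.22 to 11.2 FPKM in the 5 mice labelled Ncoa5+/- and from 7.82 to 8.19 FPKM in the 3 wild type mice, so the groups did not overlap, with the nearest mice almost level and in the direction opposite to Glul. Its log2 difference was 0.28 ± 0.23 (limma adjusted p = 1.0), and without metformin 0.12 ± 0.21 with overlapping groups. Znrf3 ran from 1.24 to 2.76 FPKM over all 25 mice and overlapped in every comparison.

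Axin2, the scaffold of the destruction complex and a direct target of the pathway in many tissues, lies at chr11:108920349-108950783. At 20 weeks it stood at 1.47, 0.910, 0.837 and 0.919 FPKM in mice labelled Ncoa5+/-, against 1.46, 1.22, 1.90 and 1.84 FPKM in wild type mice. There, 3 mice labelled Ncoa5+/- lay below every wild type mouse and replicate 1 within their range (log2 difference -0.36 ± 0.15, limma adjusted p = 0.603). At 39 weeks the sign was the other way, with 2.38, 2.13, 5.92, 2.93 and 2.97 FPKM in untreated mice labelled Ncoa5+/- and 3.87, 1.17, 2.43 and 2.38 FPKM in untreated wild type mice (log2 difference 0.30 ± 0.23, limma adjusted p = 0.913). Tbx3, a T-box transcription factor downstream of beta-catenin in liver, lies at chr5:119570130-119684724 and overlaps its antisense gene Tbx3os1. The counting strand is not given in the sources used here, so reads of the 2 genes cannot be told apart. Tbx3 ran from 6.22 to 22.2 FPKM in untreated mice labelled Ncoa5+/- and from 4.18 to 16.4 FPKM in untreated wild type mice at 39 weeks, so the groups overlapped. Lect2, which encodes a secreted chemotactic protein made by hepatocytes, lies at chr13:56542460-56548538. It stood at 129, 86.7, 131, 119 and 115 FPKM in untreated mice labelled Ncoa5+/- and 152, 146, 142 and 107 FPKM in untreated wild type mice at 39 weeks, with 3 wild type mice above every mouse labelled Ncoa5+/-. Its log2 difference was -0.24 ± 0.14 without metformin and -0.28 ± 0.15 with it, and -0.26 ± 0.10 for the mean of both (limma adjusted p = 0.611).

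**Figure D2:**
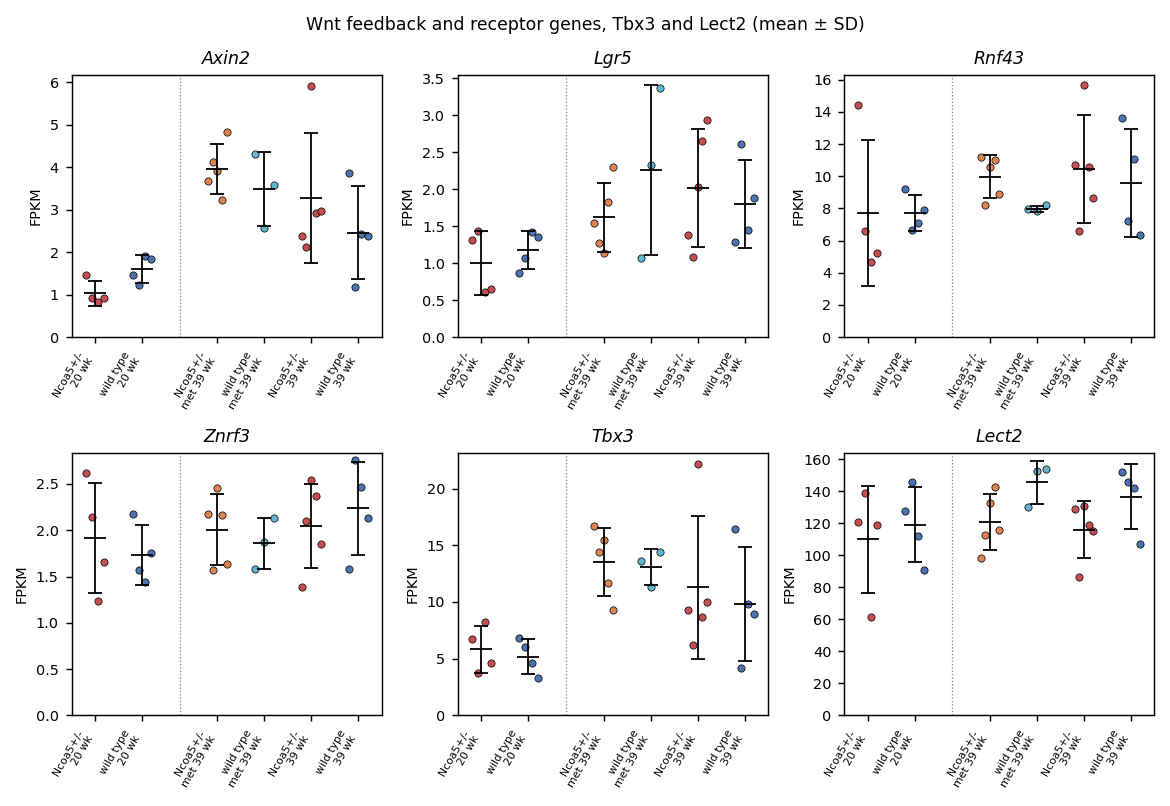
Levels of Axin2, Lgr5, Rnf43, Znrf3, Tbx3 and Lect2 in FPKM (vertical axis, from 0) for each mouse (points) in the 6 groups along the horizontal axis, with bars for mean ± SD; the dotted line separates the cohorts. Groups overlap in nearly all panels, and untreated Ncoa5+/- replicate 3 at 39 weeks is the highest point for Axin2 (5.92 FPKM) and Tbx3 (22.2 FPKM).

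Counted together for genotype, 6 of the 10 genes had a log2 difference below 0 in untreated mice at 39 weeks, with a median of -0.16, where 55.5% of all loci were below 0 with a median of -0.02. At an unadjusted limma p under 0.05, 4 genes were lower and 0 higher, where 2.81% of all loci were lower and 2.81% higher, while 0.262% of all loci passed the adjusted threshold. With metformin 6 of 10 were below 0 with a median of -0.27, where 51.8% of all loci were below 0 with a median of -0.01, and 3 were lower at an unadjusted p under 0.05, where 2.26% of loci were. Groups did not overlap in the lower direction for Oat without metformin, where 0.717% of loci did the same, and for Glul, Slc1a2 and Rhbg with it, where 1.72% did. Rnf43 with metformin did not overlap in the higher direction, where 2.0% of loci did the same, and with metformin 0.157% of loci passed the adjusted threshold. At 20 weeks 7 of 10 were below 0 with a median of -0.14, where 45.6% of all loci were below 0 with a median of 0.03. Axin2 alone was lower at an unadjusted p under 0.05, where 2.43% of loci were, and 0% of loci passed the adjusted threshold (0 of 10963, with 820 at an unadjusted p under 0.05). Axin2 kept an unadjusted p under 0.05 in 6 of 15 alternatives. Without the 2 wild type mice titled by another scheme its unadjusted limma p was 0.250. Both genotype comparisons at 39 weeks used different mice and the same estimate of the spread. In the authors' deposited table for the 20-week genotypes no one of the 10 genes was marked significant, with q-values from 0.648 for Axin2 to 0.999 for Rnf43, where 2.1% of 13975 loci were.

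**Figure D3:**
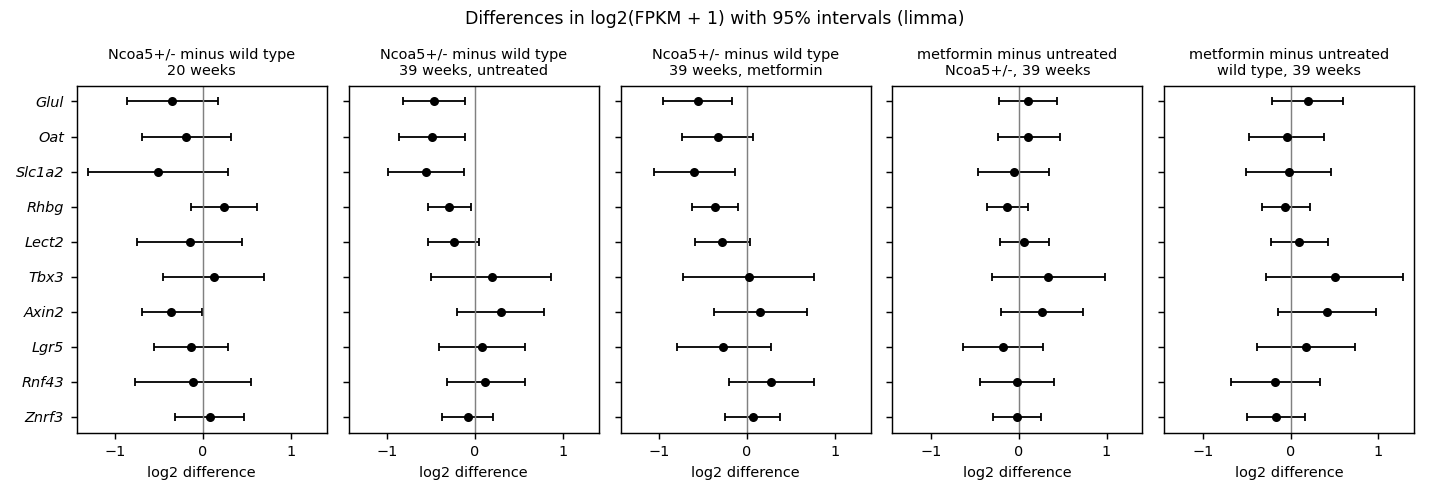
Difference in log2(FPKM + 1) for each of the 10 genes (rows) in 5 comparisons (panels), with limma estimates as points and 95% intervals as bars; the vertical line marks 0. In both genotype comparisons at 39 weeks the intervals of Glul, Slc1a2 and Rhbg lie below 0, as does that of Oat without metformin (-0.86 to -0.11), while all intervals of the metformin panels include 0.

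No one of the 10 genes passed the threshold for metformin in either genotype. In mice labelled Ncoa5+/- the log2 difference of treated minus untreated ran from -0.18 ± 0.22 for Lgr5 to 0.33 ± 0.30 for Tbx3, with a median of 0.02 against 0.00 for all loci. No one of the 10 reached an unadjusted limma p of 0.05, where 4.88% of loci were lower and 3.95% higher at that level, and the smallest adjusted p was 0.740. For Glul the 95% interval of the difference was -0.23 to 0.44. In wild type mice Glul was higher in all 3 treated mice (476, 453 and 463 FPKM) than in all 4 untreated mice (at most 432 FPKM), where 4.37% of all loci were as far apart in that direction. Its log2 difference of 0.20 ± 0.19 had a 95% interval of -0.21 to 0.60 (limma adjusted p = 0.775). No one of the 10 reached an unadjusted p of 0.05 in wild type mice, where 4.55% of loci were lower and 4.8% higher at that level. The other 9 genes overlapped, and Axin2 and Tbx3 had the highest estimates, at 0.41 ± 0.26 and 0.50 ± 0.37 (limma adjusted p = 0.642 and 0.688). Over all loci 0% passed in each metformin comparison by limma, with 1010 loci at an unadjusted p under 0.05 in mice labelled Ncoa5+/- and 1070 in wild type mice. In the authors' deposited table for metformin in mice labelled Ncoa5+/-, all 10 genes had a q-value of 1.0, where 1.22% of 14159 loci were significant. The difference between the genotypes in the metformin response also gave no call (smallest adjusted p 0.991, with 0% of loci past the threshold and 319 loci at an unadjusted p under 0.05), and its 95% interval for Glul was -0.62 to 0.43.

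Around these genes, the list of other pericentral genes, chosen with earlier results known as were all lists, held 26 names. At 39 weeks 23 of them were tested, and Cyp2e1 was not among those. Of the 23 tested genes 16 were below 0 in untreated mice labelled Ncoa5+/- against wild type, with a median of -0.06. With metformin 15 were below 0, with a median of -0.08. Over all loci 55.5% and 51.8% were below 0 in turn. Slc22a3, an organic cation transporter, was the gene of that list that passed: it fell in untreated mice labelled Ncoa5+/-, to 0.657 ± 0.109 FPKM, against 1.75 ± 0.434 FPKM in wild type (SD, n = 5 and 4; log2 difference -0.72 ± 0.13, limma adjusted p = 0.0333). With metformin Slc22a3 stood at 0.627 ± 0.237 FPKM in mice labelled Ncoa5+/- and 1.24 ± 0.360 FPKM in wild type mice (SD, n = 5 and 3), and the mean of both differences was -0.59 ± 0.10 (limma adjusted p = 0.00709). Both groups labelled Ncoa5+/- averaged below the filter of 1 FPKM, so Slc22a3 was tested only through its level in wild type mice. Its calls are therefore not read as a result on pericentral genes. The call without metformin was lost in 11 of 24 alternatives, with limma adjusted p up to 0.142. Among these was the fit without the libraries with over 70% of the FPKM sum in 50 loci (limma adjusted p = 0.111). At an unadjusted p under 0.05, Cyp27a1, Slc16a10, Gulo and Lhpp were also lower without metformin, and Cyp27a1, Avpr1a, Gulo, Slc22a3 and Slc13a3 with it, where 2.81% and 2.26% of all loci were lower at that level. Rgn was higher with metformin at that level (log2 difference 0.24 ± 0.11). These names were given after their values were seen. The Lhpp locus overlaps that of Oat, so reads of Lhpp and Oat may be shared. The periportal list went with no common direction at 39 weeks (13 of 22 tested genes above 0 without metformin and 8 of 22 with it), with Asl lower (log2 difference -0.29 ± 0.10, limma adjusted p = 0.641) and Hsd17b6 higher (1.20 ± 0.44, adjusted p = 0.675) but without a call. At 20 weeks 17 of 22 periportal genes were above 0 with a median of 0.28, and 14 of 21 other pericentral genes below 0 with a median of -0.16, none of them with a call. Over all loci 45.6% were below 0 at that age, with a median of 0.03.

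Partners of the 4 effectors in glutamate, glutamine and proline metabolism were below 0 for genotype in 10 of 12 tested genes at 39 weeks without metformin. Their median was -0.11, where 55.5% of all loci were below 0 with a median of -0.02. With metformin 8 of 12 were below 0 with a median of -0.07, where 51.8% of all loci were, with a median of -0.01. Prodh, proline dehydrogenase, whose product meets that of Oat in the route from proline to glutamate, stood at 81.2 ± 9.53 FPKM in untreated mice labelled Ncoa5+/- and 122 ± 25.4 FPKM in untreated wild type mice (SD, n = 5 and 4; log2 difference -0.56 ± 0.13, limma adjusted p = 0.119). With metformin Prodh stood at 72.5 ± 9.07 FPKM in mice labelled Ncoa5+/- and 99.3 ± 9.42 FPKM in wild type mice (SD, n = 5 and 3). The mean of both Prodh differences passed at -0.51 ± 0.09 (limma adjusted p = 0.0169), a call that was lost in 4 of 23 alternatives with adjusted p up to 0.0784. Among these was the fit without the libraries with over 70% of the FPKM sum in 50 loci (limma adjusted p = 0.0674). Gpt2, the mitochondrial alanine aminotransferase, was lower at -0.35 ± 0.10 without a call (adjusted p = 0.326). For metformin, Gpt, Aldh4a1, Gpt2 and Slc38a3, named after their values were seen, were 4 of 12 tested genes lower in mice labelled Ncoa5+/- at an unadjusted p under 0.05, where 4.88% of all loci were lower. In wild type mice the same 4 and Got2 were 5 of 12, where 4.55% of loci were lower, and no one of them had a call.

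Upstream parts of the pathway gave no call at 39 weeks, and the values given first are for genotype in untreated mice. Of 14 ligand and secretion genes 5 were tested, and Wnt2, an endothelial ligand, averaged 1.26 ± 0.482 FPKM in untreated mice labelled Ncoa5+/- and 1.35 ± 0.121 FPKM in untreated wild type mice (SD, n = 5 and 4). Wnt5b had a log2 difference of 0.25 ± 0.20. Of the receptors 11 of 18 were tested, with a median of -0.00, and Fzd7 and Fzd6 had the smallest p at 0.37 ± 0.22 and 0.34 ± 0.22 (limma adjusted p = 0.913 for both). The destruction complex, with 16 tested genes, had a median of -0.01, and Dvl2 and Csnk1e were at 0.28 ± 0.12 and 0.27 ± 0.12 (limma adjusted p = 0.857 and 0.868). Among TCF/LEF factors and their cofactors Tcf7 was at 0.39 ± 0.12 (limma adjusted p = 0.471) and Ep300 at -0.16 ± 0.10, and among antagonists Ctnnbip1, which binds beta-catenin, was at 0.39 ± 0.11 (limma adjusted p = 0.33) and Nkd1 at -0.15 ± 0.13. The 13 regulators of zonation had a median of -0.03, with Hras at 0.15 ± 0.10 and Rxra at -0.13 ± 0.09. For metformin, 12 of 14 TCF/LEF and cofactor genes were below 0 in each genotype, as were 5695 and 6004 of 11441 loci. At an unadjusted limma p under 0.05, Crebbp and Tcf7l2 were lower in mice labelled Ncoa5+/-, where 4.88% of loci were. In wild type mice both, Ep300 and Bcl9l were lower, where 4.55% were. Tcf7l2 was at -0.50 ± 0.13 and -0.68 ± 0.15 in turn (limma adjusted p = 0.387 and 0.264). None was higher at that level, and these were named after their values were seen.

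One Wnt target described in many tissues passed in the higher direction. Ccnd1, which encodes cyclin D1, is induced by several pathways besides Wnt. It rose to 21.0 ± 4.48 FPKM in untreated mice labelled Ncoa5+/-, against 7.81 ± 0.748 FPKM in untreated wild type mice (SD, n = 5 and 4; log2 difference 1.30 ± 0.20, limma adjusted p = 0.00655). With metformin Ccnd1 stood at 17.2 ± 5.76 FPKM in mice labelled Ncoa5+/- and 5.49 ± 0.717 FPKM in wild type mice (SD, n = 5 and 3; 1.43 ± 0.22, limma adjusted p = 0.00975, a call lost in 4 of 24 alternatives with adjusted p up to 0.184). It was the gene called among 8 tested targets of that list, and the other 7 had no call in either genotype comparison. Over all loci 0.262% passed without metformin (29 loci higher and 1 lower) and 0.157% with it (18 higher and 0 lower).

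**Figure D4:**
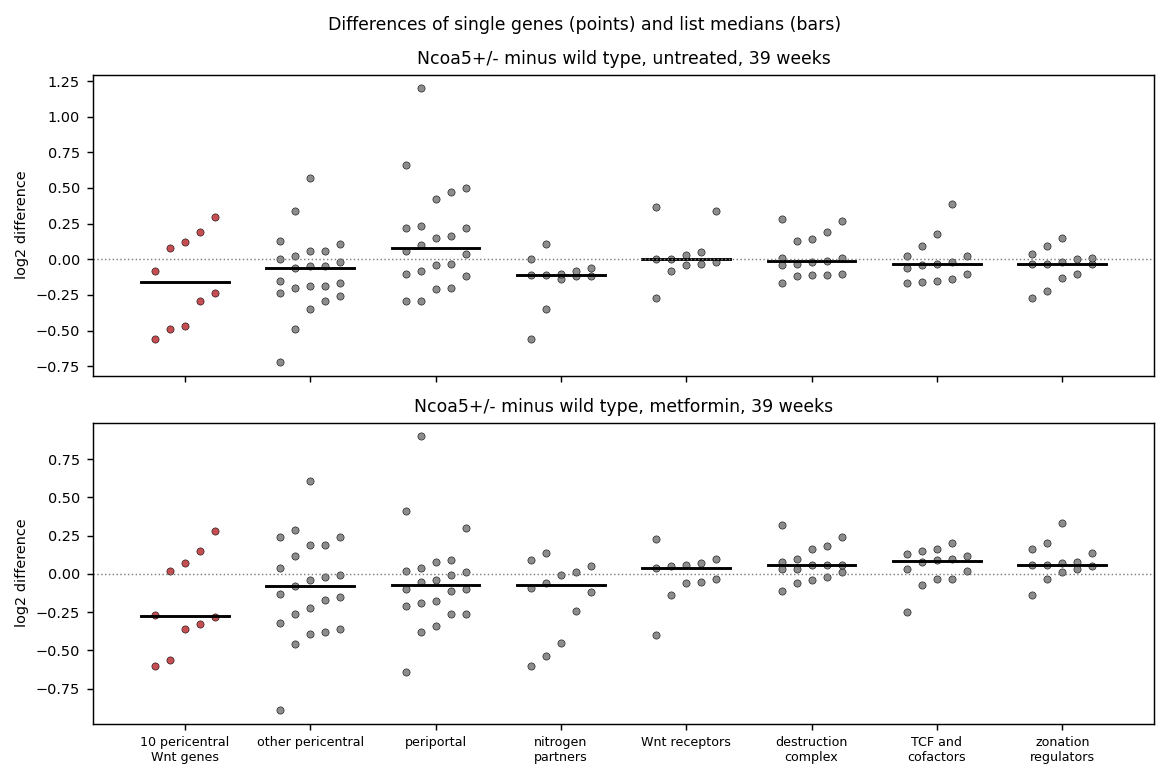
Log2 difference of each tested gene (points) and the median of each list (bars) for mice labelled Ncoa5+/- minus wild type mice at 39 weeks, untreated (upper panel) and with metformin (lower panel); the dotted line marks 0. The 10 pericentral Wnt genes have medians of -0.16 and -0.27, and those of the other pericentral genes are -0.06 and -0.08.

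Markers of other cell types are set beside the genotype values here. Over all loci 55.5% were below 0 in untreated mice at 39 weeks, 51.8% with metformin and 45.6% at 20 weeks. Endothelial markers were below 0 in 13 of 14 tested genes in untreated mice at 39 weeks, with a median of -0.16, and in 4 of 14 with metformin, with a median of 0.04. Their summed level ran from 110 to 215 FPKM in untreated mice labelled Ncoa5+/- and from 161 to 222 FPKM in untreated wild type mice, and with metformin from 194 to 228 FPKM in mice labelled Ncoa5+/- and 190 to 216 FPKM in wild type mice. Macrophage markers were below 0 in 11 of 11 genes in untreated mice, with a sum of 154 to 418 FPKM in mice labelled Ncoa5+/- and 243 to 608 FPKM in wild type mice, and in 9 of 11 with metformin, at 276 to 382 FPKM in mice labelled Ncoa5+/- and 300 to 376 FPKM in wild type mice. At 20 weeks 11 of 11 macrophage genes were below 0 with a median of -0.65, with a sum of 58.5 to 101 FPKM in mice labelled Ncoa5+/- and 69.5 to 177 FPKM in wild type mice, and 11 of 13 endothelial genes were below 0 with a median of -0.15. No endothelial or macrophage marker was at 0 in every mouse. The medians of the other lists in untreated mice at 39 weeks were 0.05 for 10 stellate and fibroblast genes, 0.27 for 4 cholangiocyte genes, 0.37 for 3 lymphocyte genes, -0.13 for 5 erythroid genes and 0.01 for 6 hepatocyte genes, with no call. With metformin the medians were 0.06 for stellate and fibroblast, 0.04 for cholangiocyte, 0.08 for lymphocyte and 0.03 for erythroid genes. There, 6 of 6 hepatocyte genes were below 0 with a median of -0.17, and their sum ran from 9863 to 12228 FPKM in mice labelled Ncoa5+/- and from 12228 to 12521 FPKM in wild type mice. At 20 weeks 5 of 6 were above 0 with a median of 0.55, with a sum of 11930 to 18410 FPKM in mice labelled Ncoa5+/- and 7808 to 11527 FPKM in wild type mice. The part of any of these cells in the results was not tested.

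Across mice within groups, the correlations between the 10 genes differed in sign and size, and the same over pairs of all loci was not computed. Over the 17 mice of 39 weeks, with each group's mean removed, the median Pearson r of the 45 pairs was 0.23, and over the 8 mice of 20 weeks it was 0.38. One pair passed adjustment over the 45 pairs at 39 weeks, Slc1a2 with Lgr5 (Pearson r = 0.82, permutation p = 0.000430, adjusted p = 0.0193; Spearman rho = 0.84, permutation p = 0.000610, adjusted p = 0.0274). Its r stayed at 0.82 without the 2 mice farthest from the median of Slc1a2 and was 0.61 at 20 weeks (n = 8, permutation p = 0.161). Axin2 and Tbx3 had an r of 0.84 (permutation p = 0.00493, adjusted p = 0.111; Spearman rho = 0.65, permutation p = 0.0138, adjusted p = 0.207). This r was 0.64 without the 2 farthest mice, 0.91 (adjusted p = 0.0378 by permutation) without the libraries dominated by 50 loci, and -0.21 at 20 weeks. Glul and Oat, the 2 genes with the highest FPKM, had a negative correlation that did not pass at 39 weeks (r = -0.45, permutation p = 0.115, adjusted p = 0.432; rho = -0.48, permutation p = 0.0880, adjusted p = 0.455) and an r of 0.21 at 20 weeks. Among all tested loci at 39 weeks the loci most like Glul by this r included Pdpr (0.84, and 0.72 at 20 weeks), Zfp952 (0.83, and -0.32 at 20 weeks), Gga3 (0.83, and 0.35) and Abi3 (0.77, and 0.13), each over 17 and 8 mice. These loci were picked for the highest r at 39 weeks, so that r is high by choice. Without the 2 mice farthest from the median of Glul it was 0.67, 0.73, 0.55 and 0.43 in that order. Of the other 9 genes, Rhbg and Rnf43 had an r with Glul of 0.64, above that of 99.3% of tested loci, and Oat had a higher r than 5.22% of them. Axin2, Lect2 and Tbx3 had an r of 0.63, 0.56 and 0.48, above that of 99.2%, 97.9% and 95.8% of loci. Slc1a2, Lgr5 and Znrf3 had an r of 0.23, 0.23 and 0.18, above that of 79.1%, 78.9% and 73.5%. Neither r of 0.64 passed adjustment (permutation, adjusted p = 0.202 for Rhbg and 0.206 for Rnf43), and without the 2 farthest mice they were 0.46 for Rhbg and 0.21 for Rnf43. Spearman rho was 0.59 for Rhbg and 0.36 for Rnf43 (permutation, adjusted p = 0.28 and 0.73). Nor did the r of Axin2, Lect2 and Tbx3 with Glul pass adjustment (permutation, adjusted p = 0.202, 0.206 and 0.452). Without the 2 farthest mice it was 0.27, 0.25 and -0.11 in that order.

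**Figure D5:**
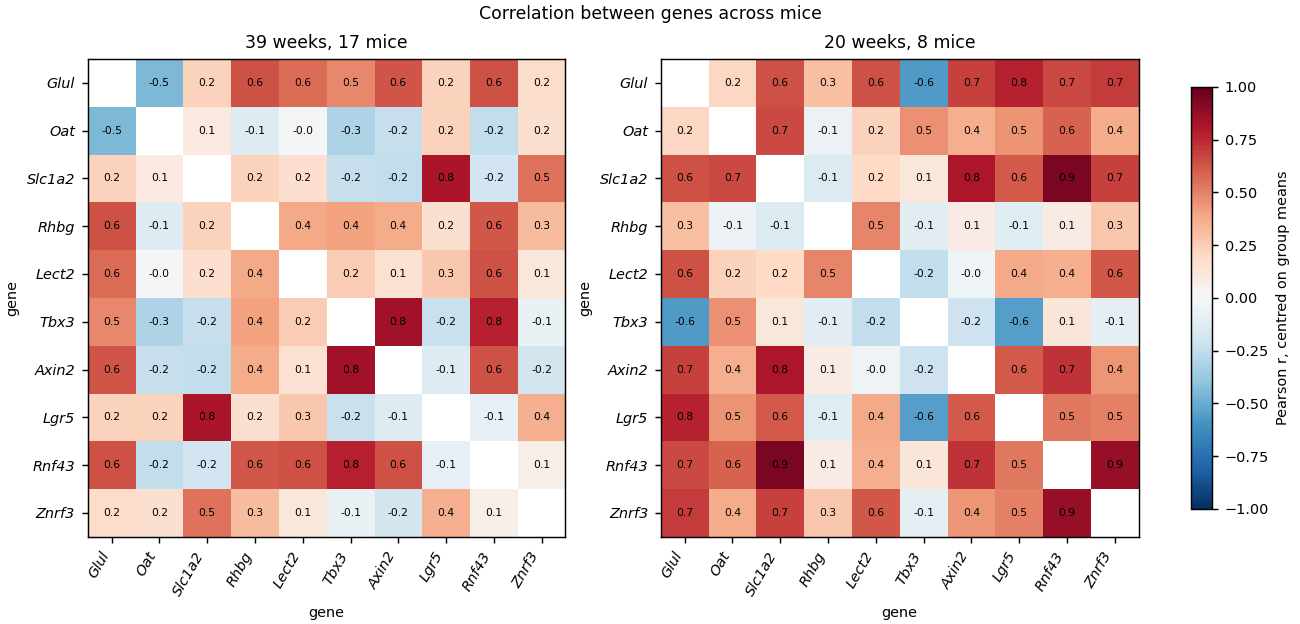
Pearson r between each pair of the 10 genes across mice, after removal of group means of log2(FPKM + 1), at 39 weeks (left, 17 mice) and 20 weeks (right, 8 mice), with red for positive and blue for negative values. Slc1a2 and Lgr5 stand out at 39 weeks with 0.82, and Glul and Oat are negative there with -0.45.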

How the data were processed

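Liver RNA of 25 mice was sequenced in 2 cohorts, 8 mice of 20 weeks and 17 of 39 weeks. Per the submitters' processing notes, the authors used Trimmomatic 0.33, TopHat2, Cufflinks and Cuffnorm with the build GRCm38.p5; other versions and the scaling between libraries are not given in the sources used here. The deposited value per locus and mouse is FPKM. The authors' deposited comparison tables hold log2 fold changes, p-values and q-values, which were copied with the sign turned to metformin over untreated or Ncoa5+/- over wild type. The files used hold no counts, so depth in reads is unknown and no counting interval is given. Mice were grouped by the labelled genotype, age and treatment.

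FPKM was analysed as log2(FPKM + 1) over loci with a cohort mean of at least 1 FPKM, with limma 3.58.1 in R 4.3.3 (lmFit, eBayes with a trend), and adjusted by Benjamini-Hochberg over all loci tested, with a threshold of 0.05. A log2(FPKM + 1) difference understates the change of lowly expressed genes. Both groups of 20 weeks entered 1 fit and all 4 groups of 39 weeks another. Loci listed at 0 throughout 1 group and well above 0 in another were left out as failed estimates (15 at 20 weeks and 14 at 39 weeks). An exact test planned for genes under the filter had no gene to test. Correlations used 100000 permutations within groups (Python 3.11.15, numpy 2.4.6). The fits were tested on simulated data. Sequences came from RefSeq.

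The 10 genes and all lists were chosen with earlier results of these data known. Named besides the 10 were, from each list, the genes past the threshold or else at most the 2 with the smallest p at 39 weeks in untreated mice, the 5 loci most like Glul (1 of them is not reported here), and Ncoa5. The mean of the genotype differences with and without metformin was added after the data were seen. Alternatives were a pseudocount of 0.1, no filter, quantile normalization, a median shift, no trend, only the 2 groups under comparison, and fits without each mouse in turn, the libraries dominated by 50 loci, or the 2 wild type mice of 20 weeks titled by another scheme.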

Additional observations from a re-analysis of the deposited data

Results flagged for a closer look

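Among 50 combinations of a gene and a group of 4 or 5 mice, 5 values stood apart from the rest of their group, by a gap to the nearest mouse that took most of the group's range. Chance alone sets apart about 1 value in 20 such groups. In untreated mice labelled Ncoa5+/- at 20 weeks, replicate 1 had 77.6 FPKM of Slc1a2 where the other 3 mice had 22.5 to 28.6 FPKM. The same replicate had 1.47 FPKM of Axin2 where the others had 0.837 to 0.919 FPKM. In untreated mice labelled Ncoa5+/- at 39 weeks, replicate 3 had 5.92 FPKM of Axin2 where the other 4 mice had 2.13 to 2.97 FPKM, and 22.2 FPKM of Tbx3 where they had 6.22 to 10 FPKM. In that library 78.3% of the FPKM sum lay in 50 loci, and its part in these values was not tested. In untreated wild type mice at 39 weeks, replicate 4 had 347 FPKM of Glul where the other 3 mice had 422 to 432 FPKM.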

How the results depend on the processing

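No paired analysis was possible because the labels give each mouse its own ID and no shared replicate numbers. Of 60 differences of the 10 genes, 25 changed sign under some alternative, in 59 of 1340 refits, and none of these was past the threshold. Glul, Oat, Slc1a2 and Rhbg kept their sign in both genotype comparisons of 39 weeks, and had an unadjusted p under 0.05 in 24, 24, 23 and 20 of 24 alternatives without metformin and in 24, 1, 23 and 24 of 24 with it. Counts of loci past the threshold for genotype at 20 weeks were 4 without the libraries dominated by 50 loci, 5 without the 2 wild type mice titled by another scheme, and 0 to 4 without 1 mouse. For genotype at 39 weeks they were 11 untreated and 6 with metformin in the compared groups alone, and 18 to 28 and 4 to 26 without 1 mouse. For metformin in wild type mice and for the interaction they were 2 without a filter and 0 to 1 without 1 mouse. For the mean genotype difference 1 of the 10 genes passed without the libraries dominated by 50 loci, and 0 to 1 without 1 mouse. Without those libraries 2 correlated pairs passed. For genotype at 20 weeks without 1 mouse, Tbx3 ran from -0.03 to 0.29, Lect2 from -0.28 to 0.10, Rnf43 from -0.42 to 0.06 and Znrf3 from -0.04 to 0.19; without the libraries dominated by 50 loci Tbx3 was -0.03, and without the 2 mice titled by another scheme it was -0.16 and Lgr5 0.00. For genotype at 39 weeks, Lgr5 ran from -0.02 to 0.21, Tbx3 from -0.13 to 0.45, Rnf43 from -0.03 to 0.29, Znrf3 from -0.19 to 0.00 and Wnt2 from -0.14 to 0.07; without the dominated libraries Tbx3 was -0.07 and Rnf43 -0.03, and quantile normalization put Apoc3, a hepatocyte marker at -0.09, at 0.09. With metformin Axin2 ran from -0.00 to 0.28, Tbx3 from -0.08 to 0.14 and Znrf3 from -0.01 to 0.13. For the mean of both, Lgr5 ran from -0.24 to 0.03, Tbx3 from -0.05 to 0.24 and Znrf3 from -0.06 to 0.03. For metformin in mice labelled Ncoa5+/-, Glul ran from -0.03 to 0.25, Slc1a2 from -0.16 to 0.01, Lect2 from -0.04 to 0.13, Rnf43 from -0.15 to 0.13 (0.16 without the dominated libraries) and Znrf3 from -0.10 to 0.04 (0.08 without them). For metformin in wild type mice, Oat ran from -0.14 to 0.08, Slc1a2 from -0.25 to 0.21 (0.01 with quantile normalization), Rhbg from -0.11 to 0.04, Lgr5 from -0.07 to 0.47 and Lect2 from -0.01 to 0.18. The causes were not tested.

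Groups of 3 to 5 mice limit the number of calls, and FPKM without counts gives no precision for 1 mouse. Levels near 1 FPKM, as for Lgr5 and Axin2 at 20 weeks, rest on few fragments and are compressed by the pseudocount of 1. Reads of merged or overlapping loci (Rhbg, Oat, Rnf43, Tbx3) were not separated from those of their neighbours.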
